A study of Mus musculus with 6 samples.

Results

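The genes described here are interferon response genes in mouse ovarian granulosa cells, which line the follicle around the oocyte. The set was chosen by symbol, as 37 genes of the antiviral interferon programme, and 35 of them were measured, out of 18193 genes with a probe set assigned to a single symbol. Each gene is represented by its probe set of highest mean over all 6 arrays. Of 12 members with several probe sets, 7 (Eif2ak2, Ifi35, Rsad2, Stat2, Tap1, Trim25 and Xaf1) had another probe set whose difference took the opposite sign in at least 1 comparison. Rigi was found under its earlier symbol Ddx58. Isg15, a ubiquitin-like protein, has only a probe set shared with another gene, and neither it nor Ifi44 was analysed here. Total RNA was measured on 6 Affymetrix arrays. There were 2 arrays of wild-type cells from day 25 of age, 2 of a double knockout at that age, and 2 of the same knockout at 2 months. No 2-month wild type was analysed here. Every 2-month difference against wild type is therefore against day 25 and mixes genotype with age. The double knockout, called dKO here, is Foxo1 f/-;Foxo3 f/-; Amhr2-cre, so each Foxo gene has a conditional allele and a null allele, and Cre is expressed from the Amhr2 locus, which is active in granulosa cells. The mice were of mixed FVB and C57BL/6. The labels name no hormone treatment and do not say whether animals were pooled. Values are given in the order replicate 1, replicate 2 within each group, as RMA intensity on a linear scale.

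Interferons are secreted proteins that warn cells of infection. Type I interferon binds a receptor that activates the JAK kinases, and a complex that includes STAT2 and IRF9 then binds the interferon-stimulated response element (ISRE) in front of antiviral genes. Type II interferon, made by T and NK cells, acts through the gamma-activated site (GAS) and drives genes of antigen presentation. In the ovary, both resident macrophages and somatic cells can express these genes, so RNA from a granulosa preparation can carry a signal from either. In such bulk RNA, fewer cells of a type and less RNA per cell cannot be told apart.

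Promoter sequences are shown because ISRE and GAS letters are what the pathway's factors bind. Of the 37 genes, 32 had a RefSeq promoter window (GRCm38.p6, from 250 bases before to 50 bases after the start site). The ISRE core was searched as GAAANNGAAA or its reverse complement TTTCNNTTTC, and the GAS as TTCNNNGAA, which reads alike on both strands; matches were allowed to overlap each other. An ISRE core lay in a window of 16 of the 32 genes (50%), against 3.99% of all genes in the table. A GAS lay in a window of 10 of the 32 (31.2%), against 9.55% of all genes. A match describes the letters and is not a measured binding site. Stretches upstream of the start site are shown for 7 genes that the results below turn on, 5′ to 3′ on the gene's strand, with ISRE and GAS matches in capitals.
Gbp2 (chr3:142620563-142620662, + strand): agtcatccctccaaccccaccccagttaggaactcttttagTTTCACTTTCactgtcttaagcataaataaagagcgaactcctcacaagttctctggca
Cxcl10 (chr5:92349039-92349119, - strand): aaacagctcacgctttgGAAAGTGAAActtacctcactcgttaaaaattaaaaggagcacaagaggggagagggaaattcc
Ifit1 (chr19:34640769-34640848, + strand): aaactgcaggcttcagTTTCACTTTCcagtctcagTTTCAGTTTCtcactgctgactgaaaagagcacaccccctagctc
Oas1a (chr5:120907526-120907635, - strand): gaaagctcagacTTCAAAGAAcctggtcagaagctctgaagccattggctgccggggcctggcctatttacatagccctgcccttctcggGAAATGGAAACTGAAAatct
Bst2 (chr8:71537563-71537622, - strand): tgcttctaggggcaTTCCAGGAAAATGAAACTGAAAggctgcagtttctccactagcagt
Irf8 (chr8:120736168-120736228, + strand): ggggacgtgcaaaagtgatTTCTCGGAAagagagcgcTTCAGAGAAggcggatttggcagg
Psmb8 (chr17:34198075-34198134, + strand): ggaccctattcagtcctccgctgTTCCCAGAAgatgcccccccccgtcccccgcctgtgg
Gbp2, Cxcl10 and Ifit1 carry ISRE cores, Irf8 and Psmb8 carry GAS matches, and Oas1a and Bst2 carry both. In Bst2 the GAS runs into a pair of overlapping ISRE cores. The windows of Psmb9 and Tap1 share 275 bases, since these genes are transcribed away from each other with 225 bases between their start sites. Neither window held an ISRE core or a GAS. Those of Oasl2, Trim25 and Xaf1, among others, held none either, so the 7 stretches shown, which all carry a match, do not stand for all members.

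Before the members, the arrays were checked. Foxo1 on its brightest probe set was 10319 and 7666 in wild type, 904 and 2291 in the dKO at day 25, and 126 and 343 at 2 months. Foxo3 was higher in the dKO, at 1632 and 1342, then 2539 and 3279, then 2484 and 1872 on its brightest probe set. Its other probe sets were higher in the dKO at both ages as well. The deleted exons are not named in the labels, so a probe set outside them checks nothing. The dKO 2-month replicate 1 stood apart, with r from 0.964 to 0.978 against the other 5 arrays, which had r from 0.982 to 0.992 among themselves. Granulosa markers were bright on every array, with a summed intensity from 105445 to 124257 over 11 genes. Single markers were less even, with 5 of higher and 6 of lower mean at 2 months than at day 25 in the dKO. Foxl2, named after its values were seen, was 6165 and 6783, then 6317 and 7761, then 13167 and 8826. Amh, also named so, was 2921 and 2071, then 3061 and 2096, then 1819 and 4016. Whether the 2 arrays of a group hold different animals is not stated. The p-values then reflect no more than how far replicate samples lie apart, which may be technical spread. That spread was pooled over the 3 groups in 1 fit, which also draws on the other probe sets. Each gene thus has the same SE in every comparison, and a day 25 SE includes the gap between the 2-month arrays.

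No member passed an adjusted p of 0.05 in limma in any of 3 comparisons, and neither did any of the 18193 genes (0% called in each). Instead, a pair of single arrays held most of the extreme values. On dKO 2-month replicate 1, 22 of the 35 members had their highest value, where 28.9% of all genes did. On wild-type replicate 1, 20 of the 35 had their lowest value, where 20.1% of all genes did. Oas1a, whose product makes the messenger that activates RNase L, had close replicates and no overlap between any of the groups.

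**Figure D1:**
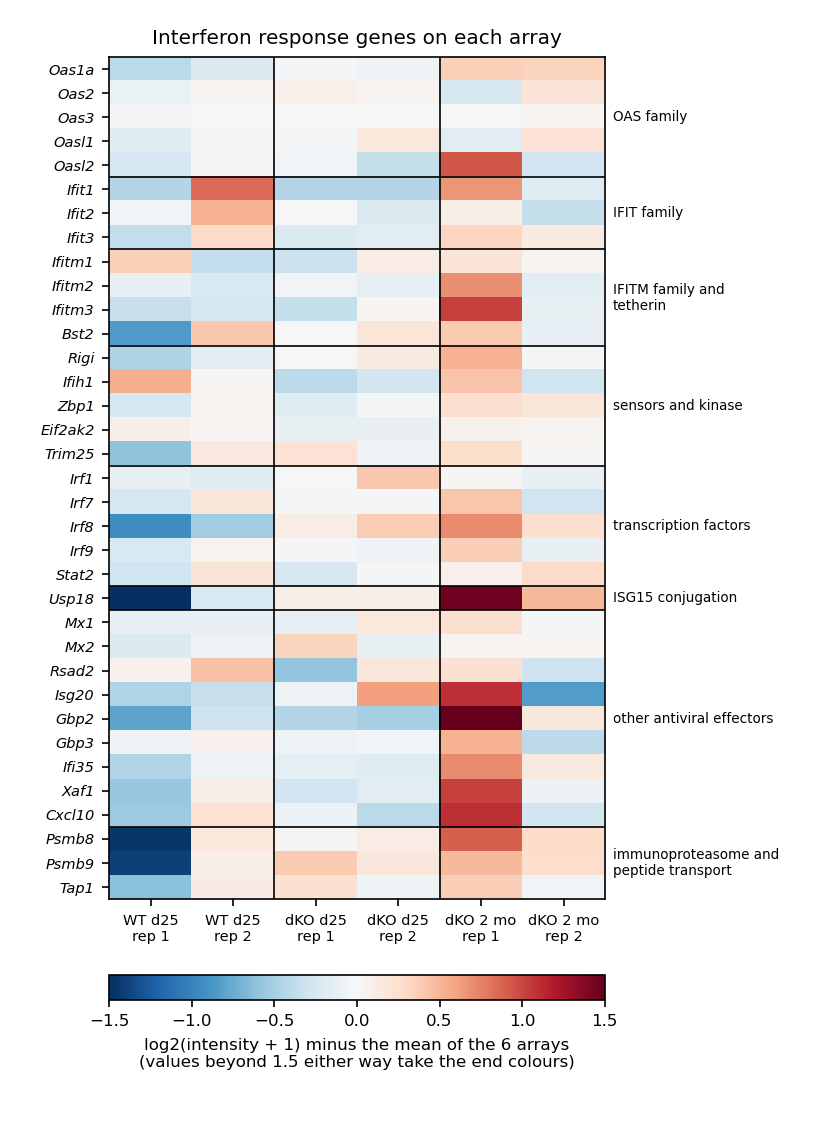
Heat map of the 35 measured interferon genes (rows, by role) on the 6 arrays (columns), coloured by log2(intensity + 1) minus the gene's mean over the 6 arrays. Wild-type replicate 1 is mostly blue and dKO 2-month replicate 1 mostly red, holding the lowest value of 20 genes and the highest value of 22 genes.

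The transcription factors were dim to moderate. Irf8, an interferon regulatory factor of myeloid cells, was 45 and 60 in wild type, 94 and 113 in the dKO at day 25, and 143 and 104 at 2 months. Both wild-type arrays thus lay below all 4 dKO arrays. Its dimmer probe set showed much smaller steps, at 59 and 59, then 62 and 62, then 81 and 66, with a log2 difference of 0.070 at day 25. On the brighter probe set the log2 difference was 0.97 ± 0.23 (SE) for dKO over wild type at day 25 (limma adjusted p = 0.498). It was 1.21 ± 0.23 for the 2-month dKO over day 25 wild type (adjusted p = 0.226). Irf1, which is switched on by type II interferon, was 880 and 842 in wild type, 963 and 1268 in the dKO at day 25, and 971 and 889 at 2 months. Its groups did not overlap at day 25, with a log2 difference of 0.36 ± 0.16 (limma adjusted p = 0.646), and between the dKO ages it was -0.25 ± 0.16 (adjusted p = 0.721). Irf9, the DNA-binding partner of STAT2, was 171 and 208, then 196 and 193, then 260 and 186. Irf7, the factor that amplifies type I interferon production, ranged from 59 to 97, with both extremes at 2 months. Stat2, a subunit of the ISRE-binding complex, ranged from 48 to 73, and its groups at day 25 overlapped. So Irf8 was the transcription factor whose genotypes were farthest apart.

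Among the sensors of viral RNA and DNA, no gene reached an unadjusted p under 0.05. Rigi, which detects RNA with a free triphosphate end, was 272 and 333 in wild type, 374 and 410 in the dKO at day 25, and 537 and 368 at 2 months. Day 25 wild type lay below the dKO of both ages. The log2 difference of dKO over wild type was 0.38 ± 0.22 (SE) at day 25 (limma adjusted p = 0.693). It was 0.56 ± 0.22 for the 2-month dKO over day 25 wild type (adjusted p = 0.385). On the dimmer Rigi probe sets the genotypes overlapped at day 25, at 52 and 76 against 69 and 73, and at 46 and 39 against 49 and 43. At 2 months the dKO was above wild type on these too, at 187 and 85, and at 61 and 47. Ifih1, which encodes the long-RNA sensor MDA5, ran in the other direction, at 291 and 201 in wild type and 151 and 163 in the dKO at day 25. At 2 months it was 267 and 161, so that replicate 1 returned to the wild-type range and replicate 2 did not. Its log2 difference at day 25 was -0.62 ± 0.30 (adjusted p = 0.659), or -0.36 without wild-type replicate 1, and at 2 months against wild type it was -0.22 ± 0.30 (adjusted p = 0.772), with the sign turned when wild-type replicate 1 (0.045) or dKO 2-month replicate 2 (0.14) was left out. Eif2ak2, which encodes the kinase PKR that halts translation, was 132 and 125, then 115 and 115, then 130 and 127, a narrow range in which the dKO at day 25 was lowest. Its log2 difference at day 25 was -0.16 ± 0.091 (adjusted p = 0.689). Trim25, the ubiquitin ligase that helps activate RIG-I, was 1674 and 2796 in wild type, 2953 and 2448 in the dKO at day 25, and 3055 and 2571 at 2 months. Zbp1, a sensor of Z-form nucleic acid, was dim at 32 to 46, and the highest of those values were 46 and 44 at 2 months. On these probe sets Zbp1 and Eif2ak2 set the 2-month arrays above day 25 dKO by small steps with close replicates. Ifih1 and Trim25 varied more within groups. The dimmer Zbp1 probe set showed no such step, at 20 and 23 in the dKO at day 25 and 22 and 21 at 2 months. For Eif2ak2, another probe set overlapped between these ages (120 and 94, then 112 and 112), while the dimmest did not (84 and 86, then 102 and 114).

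The OAS family held the member with the smallest adjusted p. Oas1a was 150 and 173 in wild type, 197 and 192 in the dKO at day 25, and 255 and 252 at 2 months. No group overlapped another, and the 2-month replicates were almost equal. Its log2 difference was 0.27 ± 0.11 (SE) for dKO against wild type at day 25 (limma adjusted p = 0.624), 0.38 ± 0.11 between the dKO ages (adjusted p = 0.712) and 0.65 ± 0.11 at 2 months against wild type (adjusted p = 0.204). Oasl2, an OAS-like protein, was 122 and 147, then 141 and 113, then 278 and 119. Only dKO 2-month replicate 1 stood out, and it was 2.33-fold above replicate 2. Oasl1, a related inhibitor of Irf7 translation, was 96 and 108, then 108 and 122, then 98 and 127. Oas2 ranged from 47 to 64 and Oas3 from 44 to 46, so these larger synthetases were dim. For Oas2 the log2 difference between the dKO ages was -0.079 ± 0.17 (adjusted p = 0.899), with the sign turned to 0.14 without dKO 2-month replicate 1.

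The IFIT proteins, which bind viral RNA that lacks host cap methylation, were among the dimmest members. Ifit1, whose upstream stretch holds a pair of ISRE cores, was 27 and 67 in wild type, 27 and 27 in the dKO at day 25, and 59 and 32 at 2 months. Wild-type replicate 2 and dKO 2-month replicate 1 were the high arrays. Ifit2 ranged from 40 to 74 and Ifit3 from 25 to 41, both with their highest or next highest value on wild-type replicate 2. All 3 had lower means in the dKO at day 25, but wild-type replicate 1 lay within 3 intensity units of the nearer dKO array for each gene. The Ifit2 log2 difference was -0.35 ± 0.25 (SE) at day 25 (limma adjusted p = 0.742) and -0.37 ± 0.25 at 2 months against wild type (adjusted p = 0.557). For Ifit1 the log2 difference between the dKO ages was 0.67 ± 0.50 (SE, limma adjusted p = 0.737), or 0.24 without dKO 2-month replicate 1.

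The IFITM proteins, which block fusion of viruses with cell membranes, and Bst2, which encodes tetherin and holds budding virus at the surface, include the brightest members. Ifitm2 was 5244 and 4881 in wild type, 5562 and 5230 in the dKO at day 25, and 9260 and 5149 at 2 months. Ifitm3 was 1192 and 1260, then 1181 and 1544, then 3087 and 1402. In both genes the first 2-month replicate was above all other arrays, by 1.80-fold and 2.20-fold over the other 2-month array. The Ifitm3 log2 difference at 2 months against wild type was 0.76 ± 0.40 (SE, limma adjusted p = 0.464), or 0.19 without that replicate. Ifitm1 was 511 and 308, then 320 and 430, then 455 and 410, with its widest spread within wild type. Bst2 was 2451 and 5851 in wild type, 4381 and 5000 in the dKO at day 25, and 5781 and 4055 at 2 months. The lowest and the highest Bst2 values of the series were thus the 2 wild-type arrays.

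Usp18 removes ISG15 from proteins and damps signalling at the type I receptor. It was 48 and 155 in wild type, 193 and 193 in the dKO at day 25, and 501 and 255 at 2 months. The groups did not overlap in any comparison, and the difference between the wild-type replicates was larger than the step from the brighter of them to the dKO. Its log2 difference at day 25 was 1.15 ± 0.63 (SE, limma adjusted p = 0.682). Without wild-type replicate 1 it was 0.31, and without wild-type replicate 2 it was 1.99. Between the dKO ages it was 0.89 ± 0.63 (adjusted p = 0.732), or 0.40 without dKO 2-month replicate 1. At 2 months against wild type it was 2.04 ± 0.63 (adjusted p = 0.335), the largest difference of group means of any member. Without wild-type replicate 1 that difference was 1.20.

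Of the remaining antiviral effectors, Gbp2 differed most with age. This guanylate-binding GTPase attacks the vacuoles of intracellular pathogens. Gbp2 was 242 and 338 in wild type, 308 and 295 in the dKO at day 25, and 1523 and 471 at 2 months. Both 2-month arrays lay above all others, and so they did on its other probe set (171 and 242, 221 and 228, 997 and 349). The log2 difference between the dKO ages was 1.49 ± 0.57 (SE, limma adjusted p = 0.712), or 0.64 without dKO 2-month replicate 1. Against wild type it was 1.56 ± 0.57 (adjusted p = 0.368), or 0.72 without that array. A relative of the same family, Gbp3, was 160 and 176, then 160 and 163, then 241 and 128, so its 2-month replicates lay on either side of day 25. Ifi35, a partner of Nmi in innate signalling, was 894 and 1161 in wild type, 1111 and 1086 in the dKO at day 25, and 2008 and 1360 at 2 months. Both 2-month arrays again lay above the rest, with a log2 difference of 0.59 ± 0.23 between the dKO ages (adjusted p = 0.712) and 0.70 ± 0.23 against wild type (adjusted p = 0.353). The first of these was 0.31 without dKO 2-month replicate 1. Xaf1, an antagonist of the apoptosis inhibitor XIAP, was 159 and 251, then 193 and 212, then 481 and 222. Its value on dKO 2-month replicate 2 was below that of wild-type replicate 2. Its log2 difference between the dKO ages was 0.69 ± 0.43 (adjusted p = 0.718), or 0.13 without dKO 2-month replicate 1.

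Cxcl10, a chemokine that draws T cells, was 29 and 50 in wild type, 40 and 32 in the dKO at day 25, and 93 and 35 at 2 months. It was at most 50 on every array except dKO 2-month replicate 1. Isg20, an exonuclease that degrades RNA, was 76 and 82 in wild type, 99 and 160 in the dKO at day 25, and 224 and 58 at 2 months. The 2-month replicates, which differed by 3.81-fold, were the highest and the lowest of the series for this gene. At day 25 its log2 difference was 0.67 ± 0.67 (SE, limma adjusted p = 0.821), or 0.32 without dKO replicate 2. Rsad2, which encodes viperin, was 136 and 176, then 86 and 147, then 152 and 105, with overlap in every comparison and a log2 difference of -0.29 ± 0.33 at 2 months against wild type (adjusted p = 0.724). Mx2, a dynamin-like GTPase, was 103 and 114, then 152 and 111, then 124 and 123. Between the dKO ages it gave -0.072 ± 0.17 (adjusted p = 0.907), which turned to 0.15 without dKO day 25 replicate 1. Mx1, which many inbred laboratory strains carry as a defective allele, was 13 to 17 on all arrays, where the lowest value of any probe set was 6 or 7.

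The immunoproteasome subunits Psmb8 and Psmb9 cut proteins into peptides, and Tap1 carries those peptides to MHC class I. Psmb8 was 173 and 530 in wild type, 481 and 515 in the dKO at day 25, and 889 and 577 at 2 months. Psmb9 was 178 and 501, then 620 and 529, then 660 and 565. Tap1 was 240 and 405, then 436 and 354, then 478 and 361. In all 3 genes wild-type replicate 1 was lowest and dKO 2-month replicate 1 highest, while wild-type replicate 2 was close to the dKO. The Psmb9 log2 difference at day 25 was 0.94 ± 0.50 (SE, limma adjusted p = 0.678), but 0.19 without wild-type replicate 1 and 1.68 without wild-type replicate 2. For Psmb8 at 2 months against wild type it was 1.24 ± 0.56 (adjusted p = 0.425), or 0.43 and 2.04 with the same arrays left out, and for Psmb9 1.03 ± 0.50 (adjusted p = 0.442), or 0.29 and 1.77.

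**Figure D2:**
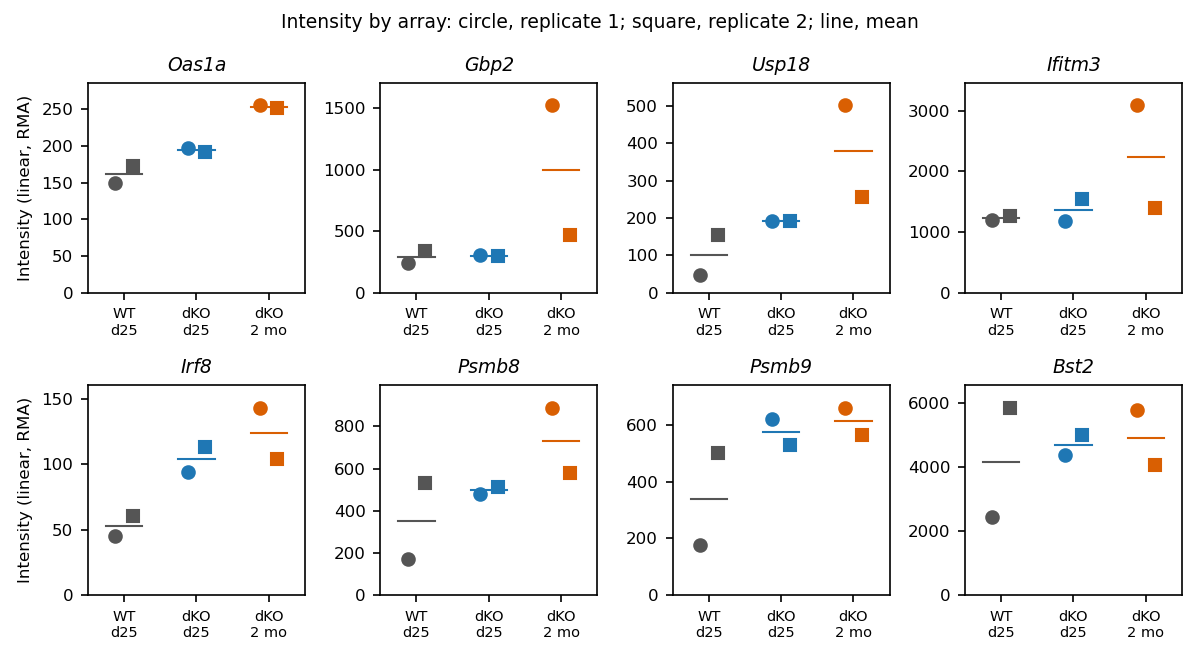
Linear RMA intensity of 8 members by group, with a circle for replicate 1, a square for replicate 2 and a line for the mean. Oas1a steps from 150 and 173 to 255 and 252 with little spread, whereas Gbp2, Usp18 and Ifitm3 have a high dKO 2-month replicate 1 and Psmb8, Psmb9 and Bst2 a low wild-type replicate 1.

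At day 25 both genotypes were measured, so this comparison asks what differs between wild type and the dKO at 1 age. The median log2 difference was 0.089 over the 35 members and 0.029 over all genes. At an unadjusted p under 0.05, 1 member was higher (Irf8) where 4.89% of all genes were, and 0 were lower where 3.44% were. The groups did not overlap for 7 members that were higher (20% of members, against 26.4% of genes) and for 2 that were lower (5.71% against 19.5%). Higher without overlap were Oas1a, Rigi, Irf1, Irf8, Usp18, Isg20 and Psmb9, and lower were Ifih1 and Eif2ak2. With a difference over 1.5-fold as well, 4 were higher (Irf8, Usp18, Isg20 and Psmb9; 7.18% of genes) and 1 lower (Ifih1; 2.15% of genes). Counts and medians depended on wild type. Leaving out an array leaves its group with 1 sample, which is then assumed to vary like the other groups. Without wild-type replicate 1, 0 members were higher (2.9% of genes) and 2 lower (2.1% of genes), with a median of -0.080. Without wild-type replicate 2, 7 were higher (3.09% of genes) and the median was 0.23. Without dKO day 25 replicate 1, 2 were higher (3.62% of genes). With groups this small, the lowest p an exact permutation test could reach is 0.333.

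The split within wild type was examined because it set those counts. Wild-type replicate 2 was over 1.5-fold above replicate 1 for 10 of 35 members (28.6%), against 2.69% of all genes. They were Ifit1, Ifit3, Bst2, Trim25, Usp18, Xaf1, Cxcl10, Psmb8, Psmb9 and Tap1. In the opposite direction only Ifitm1 differed by as much (2.86% of members, 4.99% of genes). The gap reached 3.18-fold for Usp18, 3.05-fold for Psmb8 and 2.80-fold for Psmb9. In the dKO at day 25, by contrast, 0 members were over 1.5-fold higher on replicate 1 (2.51% of genes) and 2 on replicate 2 (4.36% of genes), namely Rsad2 and Isg20. The median log2 difference between replicates over the members was 0.31 in wild type, with replicate 2 higher, and 0 in the dKO at day 25. Set against the mean of the dKO day 25 arrays, wild-type replicate 1 was past 2-fold below for 4 members (Irf8, Usp18, Psmb8 and Psmb9; 2.32% of genes) and past 2-fold above for 0 (1.21% of genes). Replicate 2 was past 2-fold below for 0 (4.4% of genes) and above for 1, Ifit1 (0.704% of genes). At 1.5-fold, replicate 1 was below for 8 (7.29% of genes) and above for 1 (3.46% of genes), and replicate 2 below for 2 (9.31% of genes) and above for 3 (2.52% of genes). Replicate 1 lay below both dKO arrays for 24 members (41.2% of genes) and replicate 2 for 9 (36.9% of genes), while they lay above both for 3 (28.5% of genes) and 18 (33.1% of genes). So a single wild-type array gave most of the members that were lower than in the dKO. Leukocyte markers ran the same way within wild type: all 10 pan leukocyte markers were lowest on wild-type replicate 1 (20.1% of genes). Their summed intensity was 715 there and 1225 on replicate 2. MHC class I genes ran this way as well, with H2-K1 at 3702 and 7884 and B2m at 6027 and 9436. The part of leukocyte RNA in the split was not tested.

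Within the dKO, the ages were compared next. Means were higher at 2 months for 29 of the 35 members, where 53% of genes were, and the median log2 difference was 0.18 against 0.021 over all genes. At an unadjusted p under 0.05, 2 members were higher (Oas1a and Gbp2; 3.73% of genes) and 0 lower (2.91% of genes). The groups did not overlap for 11 members that were higher (31.4% of members, 19.7% of genes) and 0 that were lower (17% of genes). Those 11 were Oas1a, Ifit1, Ifit3, Zbp1, Eif2ak2, Stat2, Usp18, Gbp2, Ifi35, Xaf1 and Psmb8. With a difference over 1.5-fold as well, 5 were higher (Ifit1, Usp18, Gbp2, Ifi35 and Xaf1; 3.07% of genes) and 0 lower (6.01% of genes). With dKO 2-month replicate 1 left out, the median was 0.013 and the counts were 0 higher (3.14% of genes) and 2 lower (1.86% of genes). With replicate 2 of that group left out, the median was 0.43 and 9 were higher (12.8% of genes). Without dKO day 25 replicate 1 there were 0 higher (1.75% of genes) and 1 lower (2.19% of genes). Without replicate 2 of that group there were 0 higher (2.8% of genes), with a median of 0.31.

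Taken singly, the 2-month arrays differed in what they showed. On dKO 2-month replicate 1, 7 members were past 2-fold above the mean of the dKO day 25 arrays (20% of members, 3.65% of genes) and 0 were past 2-fold below it (6.42% of genes). The 7 were Gbp2 at 5.04-fold, Usp18 at 2.59-fold, Cxcl10 at 2.56-fold, Xaf1 at 2.37-fold, Ifitm3 at 2.29-fold, Oasl2 at 2.19-fold and Ifit1 at 2.14-fold. Ifi35 came next at 1.83-fold. On dKO 2-month replicate 2, 0 members were past 2-fold above day 25 (0.66% of genes) and only Isg20 was past 2-fold below (0.495% of genes). At 1.5-fold the counts above day 25 were 12 on replicate 1 (9.26% of genes) and 1, Gbp2, on replicate 2 (2.17% of genes), and below it 0 (12.5% of genes) and 1, Isg20 (2.73% of genes). Replicate 1 lay above both day 25 arrays for 30 members (40.5% of genes) and replicate 2 for 14 (35% of genes). Replicate 1 lay below both for 2, Oas2 and Oasl1 (37.6% of genes), and replicate 2 for 9 (28.5% of genes). Over the members the median log2 difference was 0.43 on replicate 1 and 0.013 on replicate 2, against 0.010 and 0.014 over all genes. Set against each other, replicate 1 was over 1.5-fold above replicate 2 for 13 members (8.23% of genes) and below it for 0 (11% of genes). Of the 11 members with a promoter window that were past 1.5-fold above day 25 on replicate 1, 6 held an ISRE core (54.5%), and of the other 19 measured members with a window 9 did (47.4%). The replicates were close for Oas1a, at 0.39 and 0.37 on the log2 scale, for Zbp1, at 0.35 and 0.28, and for Eif2ak2, at 0.18 and 0.14. Zbp1 and Eif2ak2 each had a dimmer probe set on which the dKO ages overlapped.

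**Figure D3:**
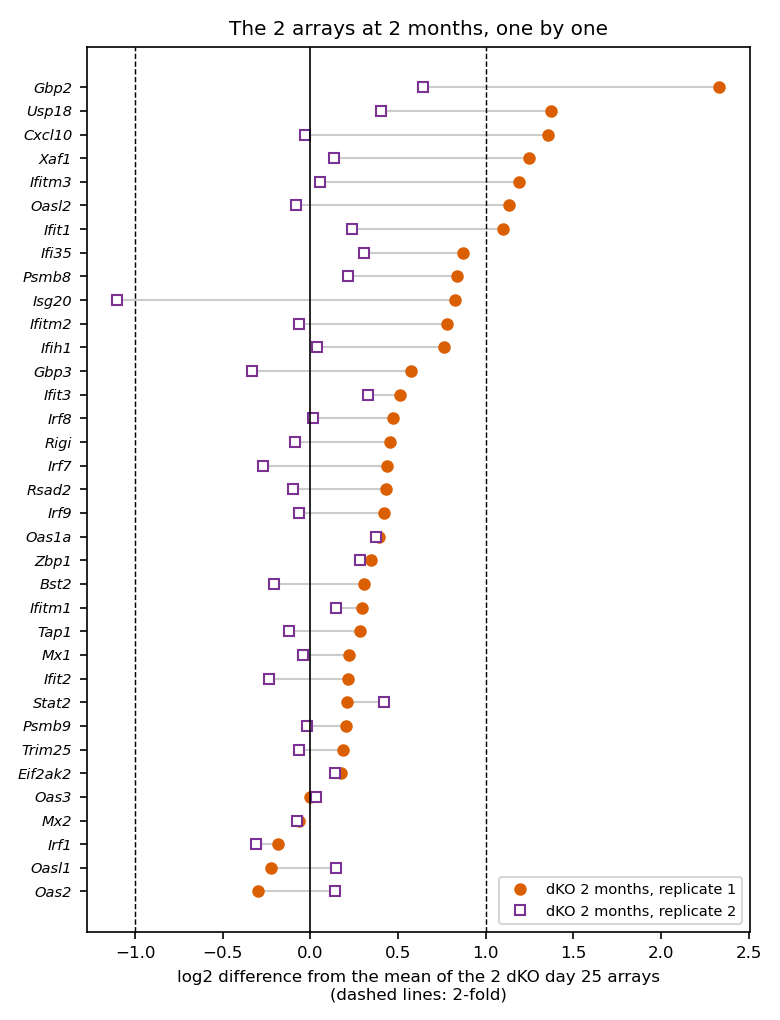
Log2 difference of each dKO 2-month array from the mean of the 2 dKO day 25 arrays, per gene, with filled circles for replicate 1, open squares for replicate 2 and dashed lines at 2-fold. Replicate 1 puts 7 genes past 2-fold, led by Gbp2, while replicate 2 puts none above that line and the squares of Oas1a, Zbp1 and Eif2ak2 lie on or beside the circles.

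The comparison of dKO at 2 months with wild type at day 25 differs in both genotype and age, which cannot be told apart since no 2-month wild type was analysed here, and it shares its arrays with the other comparisons. Means were higher for 32 of 35 members (55.4% of genes), with a median log2 difference of 0.32 against 0.039 over all genes. At an unadjusted p under 0.05, 5 members were higher (14.3% of members, 9.54% of genes) and 0 lower (5.38% of genes). The 5 were Oas1a, Irf8, Usp18, Gbp2 and Ifi35. The groups did not overlap for 13 members that were higher (37.1% of members, 26.6% of genes). None was lower without overlap (17.3% of genes). With a difference over 1.5-fold as well, 8 were higher (Oas1a, Ifitm3, Irf8, Usp18, Gbp2, Ifi35, Psmb8 and Psmb9; 7.76% of genes) and 0 lower (4.21% of genes). The count of 5 became 2 without wild-type replicate 1 (4.27% of genes), without either dKO day 25 array (7.29% of genes) or without dKO 2-month replicate 1 (7.74% of genes), which also added 1 lower member (4.41% of genes). It became 11 without wild-type replicate 2 (5.92% of genes) and 13 without dKO 2-month replicate 2 (15.6% of genes). The median was 0.14 and 0.57 without wild-type replicates 1 and 2, and 0.15 and 0.50 without dKO 2-month replicates 1 and 2.

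**Figure D4:**
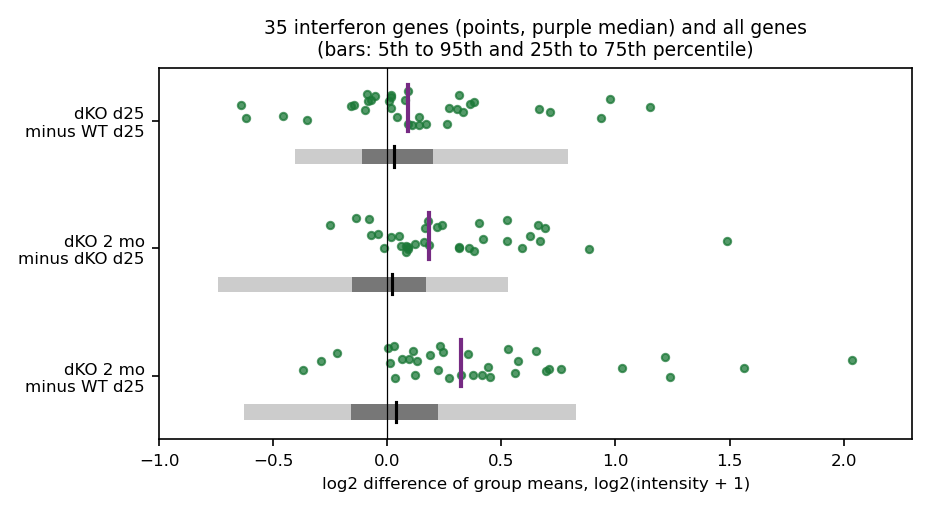
Log2 difference of group means for the 35 members (points, with a purple median line) in each comparison, above grey bars that span the 5th to 95th and 25th to 75th percentiles of all 18193 genes. The member medians are 0.089, 0.18 and 0.32, against 0.029, 0.021 and 0.039 over all genes.

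The rest of the pathway was read from 5 further gene lists. For the counts that follow, the background over all genes at an unadjusted p under 0.05 is 4.89% (higher) and 3.44% (lower) at day 25, 3.73% and 2.91% between the dKO ages, and 9.54% and 5.38% at 2 months against wild type. Of the interferon ligands and receptors, 11 of 15 were measured. The ligands were dim: Ifnb1 was 32 to 36 and Ifng 10 or 11 on every array. Ifna1, named after its values were seen, was 42 and 48 in wild type, 52 and 58 in the dKO at day 25, and 54 and 65 at 2 months. Its genotypes did not overlap, as was so for 26.4% of genes higher at day 25 and 26.6% at 2 months against wild type. Its probe set is dim and of the cross-hybridizing kind. Ifna2 did not overlap at day 25 either, at 22 and 23 against 25 and 24. Ifna4, Ifnb1 and Ifng overlapped in every comparison. The type I receptor genes Ifnar1 (653 to 910) and Ifnar2 (1273 to 2075) were well expressed. Ifnlr1, the receptor chain for type III interferon, was 85 and 73 in wild type, 106 and 99 in the dKO at day 25, and 140 and 123 at 2 months. It thus stepped up from group to group like Oas1a, with a log2 difference of 0.73 ± 0.13 (SE) at 2 months against wild type (limma adjusted p = 0.215). Il10rb, the other chain of that receptor, was 727 and 691, then 1262 and 925, then 1836 and 1025. Ifngr1, a chain of the type II receptor, was 478 and 422, then 472 and 414, then 728 and 542. In this list of 11, the genes higher at that threshold were 1 at day 25 (4.89% of all genes), 2 between the dKO ages (3.73%) and 4 at 2 months against wild type (9.54%), and 0 were lower in each.

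Downstream of the receptors, Jak1 had the smallest p of its list at day 25. This kinase serves the type I, II and III receptors. It was 4340 and 5260 in wild type, 2701 and 2642 in the dKO at day 25, and 2647 and 2288 at 2 months. All 4 dKO arrays were below both wild-type arrays. The log2 difference was -0.84 ± 0.14 (SE) for dKO against wild type at day 25 (limma adjusted p = 0.474). It was -0.96 ± 0.14 for the 2-month dKO against day 25 wild type (adjusted p = 0.177). Stat3, which responds mainly to IL6-type cytokines, ran the other way at 519 and 599, then 675 and 731, then 770 and 770. Pias1, a SUMO ligase, was 559 and 509, then 659 and 681, then 629 and 632. Of 12 measured JAK, STAT and regulator genes, an unadjusted p under 0.05 was reached by 2 higher and 1 lower at day 25, by 0 and 1 between the dKO ages, and by 1 and 1 at 2 months against wild type. A count of 0 or 1 of 12 is near the shares of all genes, which were from 2.91% to 9.54%.

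Among 19 genes of nucleic acid sensing, those with an unadjusted p under 0.05 were 0 at day 25, 1 higher and 1 lower between the dKO ages, and 3 higher and 0 lower at 2 months against wild type. These counts are near the shares of all genes, 3.73% and 2.91% between the dKO ages and 9.54% higher at 2 months. Sting1, the adaptor for cytosolic DNA, was 64 and 65, then 63 and 70, then 107 and 84, so both 2-month arrays were above the rest. Ticam1, the adaptor of TLR3, was 131 and 210, then 198 and 230, then 267 and 291. Cgas, the DNA sensor that feeds Sting1, was 183 and 139, then 283 and 351, then 89 and 199. Its 2-month replicate 1 was the lowest array, whereas most members were highest there. The order of arrays for Cgas was that of the summed oocyte markers, a likeness looked for after the values were seen. Ifi204, a DNA-binding protein named after its values were seen, was 11 and 732 in wild type, 316 and 471 in the dKO at day 25, and 145 and 271 at 2 months. The wild-type replicates of Ifi204 were the lowest and the highest of the series.

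The list of 45 other interferon-stimulated genes had 4, 2 and 12 genes higher at an unadjusted p under 0.05 in the 3 comparisons, where 4.89%, 3.73% and 9.54% of all genes were. It had 0, 1 and 0 lower, where 3.44%, 2.91% and 5.38% were. Its medians were 0.093, 0.33 and 0.47, and 31 of its genes were highest on dKO 2-month replicate 1, as were 28.9% of all genes. Phf11d was 141 and 166 in wild type, 209 and 215 in the dKO at day 25, and 261 and 216 at 2 months. Trim26, a ubiquitin ligase, was 806 and 749, then 752 and 913, then 1103 and 1563. Ifi30, a thiol reductase of antigen processing, was 1309 and 1459, then 2081 and 1589, then 2053 and 2081. Chosen after its values were seen, Oas1c was 920 and 517, then 1364 and 1934, then 147 and 1181, the same order of arrays as the summed oocyte markers.

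For MHC class I and peptide loading, 14 of 17 genes were measured, with 0, 1 and 3 higher at an unadjusted p under 0.05 (4.89%, 3.73% and 9.54% of all genes) and 0, 1 and 0 lower (3.44%, 2.91% and 5.38%). Psmb10, the remaining immunoproteasome subunit, was 428 and 528 in wild type, 603 and 537 in the dKO at day 25, and 819 and 742 at 2 months. Its groups did not overlap in any comparison, and its log2 difference at 2 months against wild type was 0.71 ± 0.15 (SE, limma adjusted p = 0.244). Tap2, the partner of Tap1, was 187 and 383, then 389 and 374, then 808 and 579. Nlrc5, which activates MHC class I genes, was 289 and 459, then 578 and 375, then 252 and 181. H2-K1 was 9975 and 4339 at 2 months, beside 6776 and 7621 in the dKO at day 25, so the 2-month replicates lay on either side of the younger cells.

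Markers of other cells were set beside the members, since many interferon genes are expressed by leukocytes. All 10 pan leukocyte markers were highest on dKO 2-month replicate 1 (28.9% of genes) and lowest on wild-type replicate 1 (20.1% of genes), the arrays that were also extreme for the members. Their summed intensity was 715 and 1225 in wild type, 2298 and 1550 in the dKO at day 25, and 5571 and 1734 at 2 months. Ptprc, the common leukocyte antigen CD45, was 46 and 122, then 146 and 147, then 468 and 163. The sum over 13 macrophage and monocyte markers was 1831 and 3445, then 8675 and 4975, then 16896 and 5461. All 13 were highest on dKO 2-month replicate 1 (28.9% of genes). Of 11 dendritic and B cell markers, 6 were highest on that array (28.9% of genes). The list medians were 0.27 and 0.23 on the 2-month arrays relative to the mean of all 6. Ms4a1, a B cell marker, ran the other way, at 166 and 91, then 139 and 70, then 49 and 164. From this list, and named after their values were seen, the MHC class II genes H2-Aa (120 and 442, then 367 and 284, then 2140 and 760) and Cd74 (91 and 314, then 229 and 238, then 1226 and 469) had the order of arrays of Gbp2, with only the dKO day 25 replicates exchanged in Cd74. T and NK cell markers were dim, with a sum over 11 genes of 532 and 599, 603 and 621, then 782 and 627. No marker was at 0, a value that these intensities do not take, and the lowest was 12 for the macrophage list and 13 for the T and NK cell list.

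The 2 series of values also came apart in places. Between the genotypes at day 25 the macrophage sums did not overlap. The median log2 difference over the 13 macrophage and monocyte markers was 0.98, where the members had 0.089. Of these markers 11 had a higher mean in the dKO (55.4% of genes) and 2 a lower mean (43.9% of genes). In limma, 0 had an unadjusted p under 0.05 at day 25 (4.89% of genes higher, 3.44% lower). Between the dKO ages the count was 0 as well (3.73% and 2.91%). At 2 months against wild type, 8 of the 13 were higher at that threshold (9.54% of genes), beside 5 of the 35 members. So were 6 of 10 pan leukocyte, 7 of 11 dendritic and B cell, and 2 of 11 T and NK cell markers. In that comparison none of these markers was lower at that threshold or passed an adjusted p of 0.05. Oas1a was 255 and 252 on the 2-month arrays, on which Ptprc was 468 and 163. Endothelial markers were higher on dKO 2-month replicate 1 too, with sums of 1250 and 1479, 1560 and 2210, then 4444 and 2345. On that array 11 of 12 had their highest value (28.9% of genes). All 12 had a higher mean in the dKO already at day 25 (55.4% of genes), with a median log2 difference of 0.41. Between the dKO ages all 12 were higher as well (53% of genes), with a median of 0.74. At 2 months against wild type, 10 of 12 were higher at an unadjusted p under 0.05 in limma (9.54% of genes). At day 25, all 12 stromal and smooth muscle markers had a higher mean in the dKO (55.4% of genes), with a median log2 difference of 0.53. Their sums were 18969 and 13442, 24080 and 30852, then 45087 and 22290. Theca and interstitial markers were brighter in sum on both 2-month arrays (21112 and 24255, 16250 and 29897, then 46929 and 38205), with a median log2 difference of 1.09 between the dKO ages. Surface epithelium markers had a median of 0.74 in that comparison, with 8 of 9 higher (53% of genes). Neutrophil markers were dim, with sums of 109 to 122 on 5 arrays and 269 on dKO 2-month replicate 1. Oocyte markers were lowest on dKO 2-month replicate 1, with sums of 35142 and 21388, 50359 and 73435, then 7501 and 40854. The part of any of these cell types in the values of the members was not tested.

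**Figure D5:**
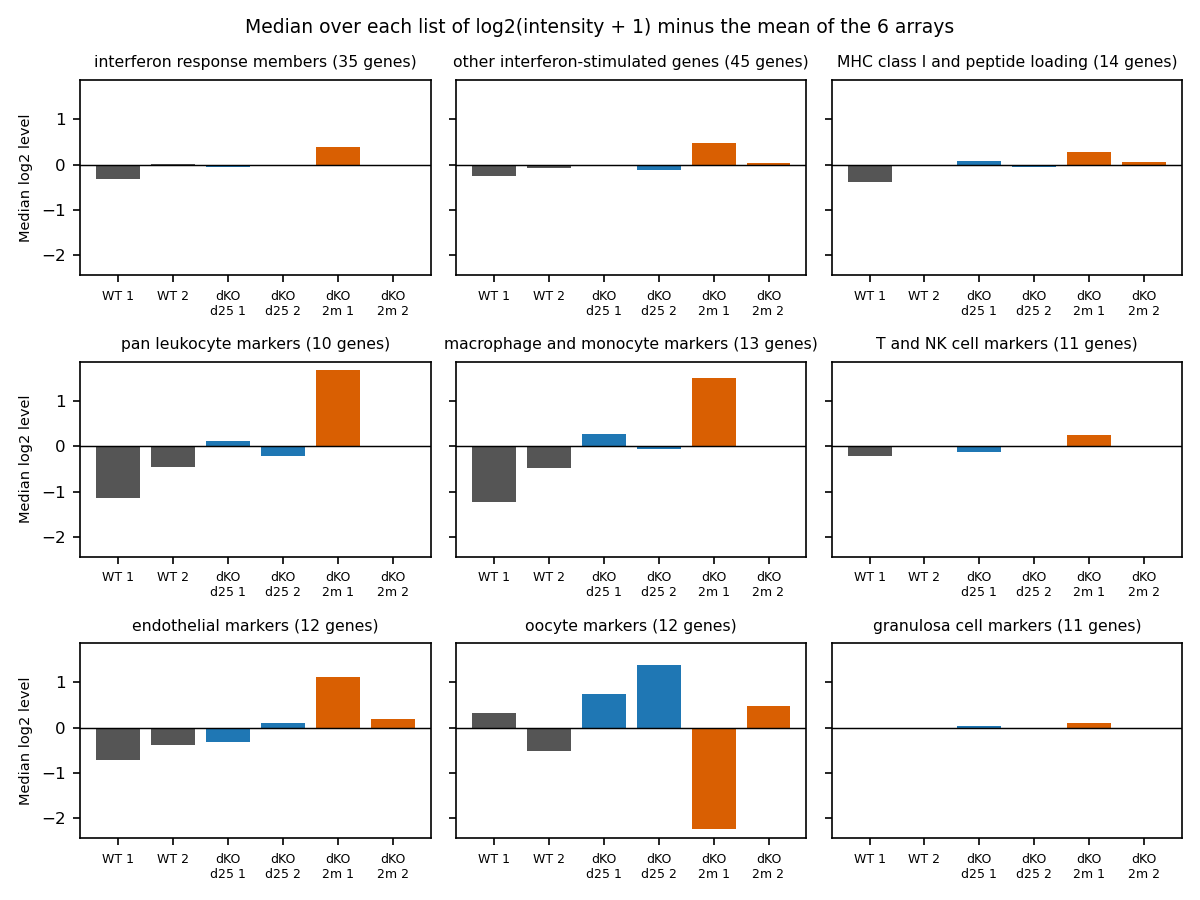
Median over each gene list of log2(intensity + 1) minus the gene's mean of the 6 arrays, as bars for wild type (grey), dKO at day 25 (blue) and dKO at 2 months (orange). The interferon members reach -0.30 on wild-type replicate 1 and 0.39 on dKO 2-month replicate 1, and the pan leukocyte markers reach -1.14 and 1.68 on the same arrays. The median of the granulosa markers stays between -0.03 and 0.11, although single markers moved in both directions.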

How the data were processed

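Total RNA from granulosa cells was labelled with biotin and hybridised to 1 Affymetrix array per sample. The deposited table holds 1 intensity for each probe set and array, in whole numbers and not on a log scale. The authors used affy and RMA, according to the submitters' processing notes. Versions, the genome build and how values left the log2 scale of RMA are not given in the sources used here. For tests, the log2 of each intensity plus 1 was taken, on which scale the differences of dim genes are understated. Of 45101 probe sets, 64 controls were left out and 45037 were fitted in R 4.3.3 with limma 3.58.1, as 1 fit of all 6 arrays with a mean per group and 3 residual degrees of freedom. Tests were two-sided, with Benjamini-Hochberg adjustment over all 45037 probe sets and a threshold of 0.05. The platform annotation gave 34945 probe sets a single symbol, 932 several and 9160 none, and only the first kind was named. Error terms are standard errors. The members, gene lists, comparisons and alternatives were chosen with earlier results of these data known. Every measured member is named, with its value on each array where its mean was at least 100 and otherwise by range; a few dimmer members that the results turn on have all values. Differences with SE are given for the 3 members of smallest p in each direction of each comparison, for those without overlap and over 1.5-fold, and for Rigi. Further pathway genes are the 3 of smallest p per list, apart from those said to be chosen after their values were seen. Also chosen so were Ifna2, Ifna4, Ifnb1, Ifng, Ifnar1, Ifnar2, H2-K1 and B2m. The code was tested on simulated data. Promoter sequences are from RefSeq (GRCm38.p6). The number of arrays limits the precision.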

Additional observations from a re-analysis of the deposited data

How the results depend on the processing

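No member passed an adjusted p of 0.05 under any alternative run, with 0 in every comparison; limma's lowest adjusted p of a named member was 0.0779, for Gbp2 at 2 months against wild type without dKO 2-month replicate 2. The members' medians stayed above 0 and the named members kept their signs under centring, repeated quantile normalization, a pseudocount of 16, a filter on mean intensity of 50, a trend with a robust prior, the 4-array fits, averaged probe sets and the exclusion of cross-hybridizing probe sets. Counts at an unadjusted p under 0.05 moved more. With a pseudocount of 16 the higher members were 2 at day 25 and 1 between the dKO ages, and with only the 4 arrays compared they were 2 at 2 months against wild type. Leaving out each array in turn gave 0 to 7 higher and 0 to 2 lower at day 25, 0 to 9 higher and 0 to 2 lower between the dKO ages, and 2 to 13 higher and 0 to 1 lower at 2 months against wild type. Replicate numbers are shared between groups, but replicate differences correlated at only -0.16, 0.057 and -0.21 between pairs of groups, so the numbers were not used to pair arrays. The replicate block gave 1 higher member between the dKO ages and 3 at 2 months against wild type, and changed no adjusted call. The crossed replicate block, added after seeing the data, gave 1 lower member at 2 months against wild type.

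Reversals among named members were Mx2 between the dKO ages, from -0.30 without dKO day 25 replicate 2 to 0.15 without replicate 1, Oas2 there, from -0.30 without dKO 2-month replicate 2 to 0.14 without replicate 1, and Ifih1 at 2 months against wild type, at 0.045 without wild-type replicate 1 and, in a range from -0.58 without dKO 2-month replicate 1, 0.14 without dKO 2-month replicate 2. For the 2-month arrays taken singly, a 1.5-fold threshold gave 12 higher on replicate 1 and 1 on replicate 2, and the count of 1 lower on replicate 2 was 0 with a pseudocount of 16 or with dKO day 25 replicate 1 alone as reference. The cause of these shifts was not tested. Dim members such as Mx1, Oas3 and Ifit3 lie near the floor, which limits what a difference in them can show.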
